A study of Mus musculus with 12 samples.

Results

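The immediate early genes described here are Fos, Fosb, Jun, Junb, Jund, Egr1, Ier2, Atf3, Dusp1 and Zfp36, 10 of the 55401 gene IDs in the count table. They were picked by symbol, with earlier results of these data known. They were measured by bulk RNA sequencing in bone marrow derived macrophages, which are marrow cells grown into macrophages with macrophage colony-stimulating factor (M-CSF, 20 ng/mL) and taken on day 7 of culture. The 12 libraries came from mice of the C57BL6 background with no other treatment named, 6 from young animals (8 weeks) and 6 from old animals (12 months). Sex, the number of animals and the time between taking the cells and lysing them are not given in the sources used here. The titles number biological replicates but name no animal, so a p-value measures the spread between these libraries.

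Immediate early genes are switched on within minutes of a stimulus by factors that are already in the cell, among them serum response factor (SRF) with its ternary complex partners, and CREB, which act downstream of the MAP kinases. Fos and Jun proteins pair into the transcription factor AP-1, Egr1 is a zinc finger transcription factor, and Atf3 is a stress-induced factor of the ATF/CREB family. Dusp1 and Zfp36 act in the opposite direction: Dusp1 is a phosphatase that switches off MAP kinases, and Zfp36 (tristetraprolin) binds AU-rich elements and speeds the decay of cytokine transcripts. In macrophages the family is known for its rapid rise on microbial stimuli, and it is also known to rise when cells are handled or dissociated, which is why its variation from library to library is of interest.

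Promoter stretches are shown for Fos, Atf3, Jun and Zfp36, which with Egr1 make up the 5 closest pairs in the results that follow. They are also shown for Dusp1, which had the lowest r with the mean of the other members. RefSeq promoter windows on GRCm38.p6, from 250 bases before to 50 bases after the annotated start, were found for 8 of the 10 members, with none for Ier2 or Egr1. The 150 bases that end just before the RefSeq start are printed 5′ to 3′ on the gene's strand for Fos, Atf3 and Jun. In the Ensembl models used for counting, an exon of the same gene also covers the last 7 of these for Atf3, 47 of the 150 for Dusp1 and all 150 for Zfp36. For Dusp1 the 103 bases upstream of that exon are printed, and for Zfp36 the 30 bases around its CArG box. Capitals mark matches to the motifs searched on both strands. These were the CArG box bound by SRF, the cAMP response element TGACGTCA, its short form TGACG (which every full element also holds), the AP-1 site TGACTCA, the EGR sites GCGGGGGCG and GCGTGGGCG, the NF-kB site, and TATAAA. The stretches lie at chr12:85473740-85473889 (plus strand) for Fos, chr1:191183334-191183483 (minus strand) for Atf3, chr4:95052223-95052372 (minus strand) for Jun, chr17:26508520-26508622 (minus strand) for Dusp1 and chr7:28379267-28379296 (minus strand) for Zfp36.
Fos promoter: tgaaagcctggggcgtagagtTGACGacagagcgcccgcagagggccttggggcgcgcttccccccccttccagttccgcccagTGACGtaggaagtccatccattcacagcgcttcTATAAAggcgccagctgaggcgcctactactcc
Atf3 promoter: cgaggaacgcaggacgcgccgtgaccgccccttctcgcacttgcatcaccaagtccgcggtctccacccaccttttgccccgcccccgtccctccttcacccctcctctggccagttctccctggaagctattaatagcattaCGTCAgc
Jun promoter: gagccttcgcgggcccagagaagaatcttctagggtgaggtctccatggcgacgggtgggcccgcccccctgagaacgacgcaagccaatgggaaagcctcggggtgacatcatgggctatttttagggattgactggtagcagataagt
Dusp1 promoter: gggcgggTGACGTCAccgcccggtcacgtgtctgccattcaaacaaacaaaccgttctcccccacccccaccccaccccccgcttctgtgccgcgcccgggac
Zfp36 promoter: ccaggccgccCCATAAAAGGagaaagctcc
A CArG box stood in the window of Zfp36 alone among the 8, at bases -58 to -49, and 1.63% of the 32851 RefSeq windows hold one. Zfp36 also held an EGR site, as did Fosb (3.47% of all windows). The full cAMP response element was found in Dusp1 alone among the 8 (1.79% of all windows), at bases -143 to -136, and the short form in Fos, Fosb, Junb, Atf3 and Dusp1 (20.8% of all windows). An NF-kB match lay in the windows of Fos, upstream of the bases printed, and Fosb (8.46% of all windows), and TATAAA in those of Fos and Junb (13.6%). None of the 8 windows held TGACTCA (5.20% of all windows), and the window of Jun held none of the motifs. A match describes the letters of the window and not a bound factor. Bases more than 250 before the start were not searched, so a motif absent here may lie farther upstream.

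Young libraries held 22150081 to 25169045 counts and old libraries 19345587 to 22356812. Macrophage markers were abundant throughout: the 10 markers fixed for this type, among them Adgre1, Csf1r and Cd68, summed to 30459 to 49343 CPM (counts per 1000000 counts of the library) over the young libraries and to 35536 to 47922 CPM over the old ones. Some libraries stood apart. The mean log2 CPM of a list of 25 cell cycle genes stood at 6.87 for young replicate 6, and at 6.27 and 5.70 for old replicates 2 and 3, against 3.95 to 5.34 in the other 9 libraries. The 8 T or NK cell markers summed to 41.6 CPM in old replicate 6 and to 0.238 to 0.776 CPM in the other 11, with Ncr1 at 0 in old replicate 6. Over all genes, 2 of 12620 tested differed between old and young by edgeR's quasi-likelihood test with Benjamini-Hochberg adjustment, Bmpr1a (log2 fold change 4.13, adjusted p = 5.3e-07) and Gdf3 (1.07, adjusted p = 0.011). The count was 1 without young replicate 4 and 5 without young replicate 3.

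No immediate early gene passed the test of old against young macrophages. Of the 10 members, 9 passed the low-count filter and 0 passed the edgeR threshold, against 0.0158% of all genes tested. At an unadjusted p under 0.05 the count was also 0 of 9, against 5.47% of all genes. Without young replicate 6 it was 1 of 9, Dusp1, against 737 of 12704 genes. DESeq2 and limma voom likewise called 0 members, against 0.0931% and 0.0238% of the genes each tested. The log2 fold changes, old over young, were above 0 for 5 members and below 0 for 4, with a median of 0.06 beside -0.010 over all genes, and the ranges of the groups overlapped for all 9 (0.206% of all genes had groups that did not overlap). The median was -0.03 without old replicate 6 and 0.22 without old replicate 2, and Fosb, Junb and Atf3 changed sign under some alternatives. In bulk RNA a change in the number of cells that express a gene and a change in RNA per cell cannot be told apart.

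**Figure D1:**
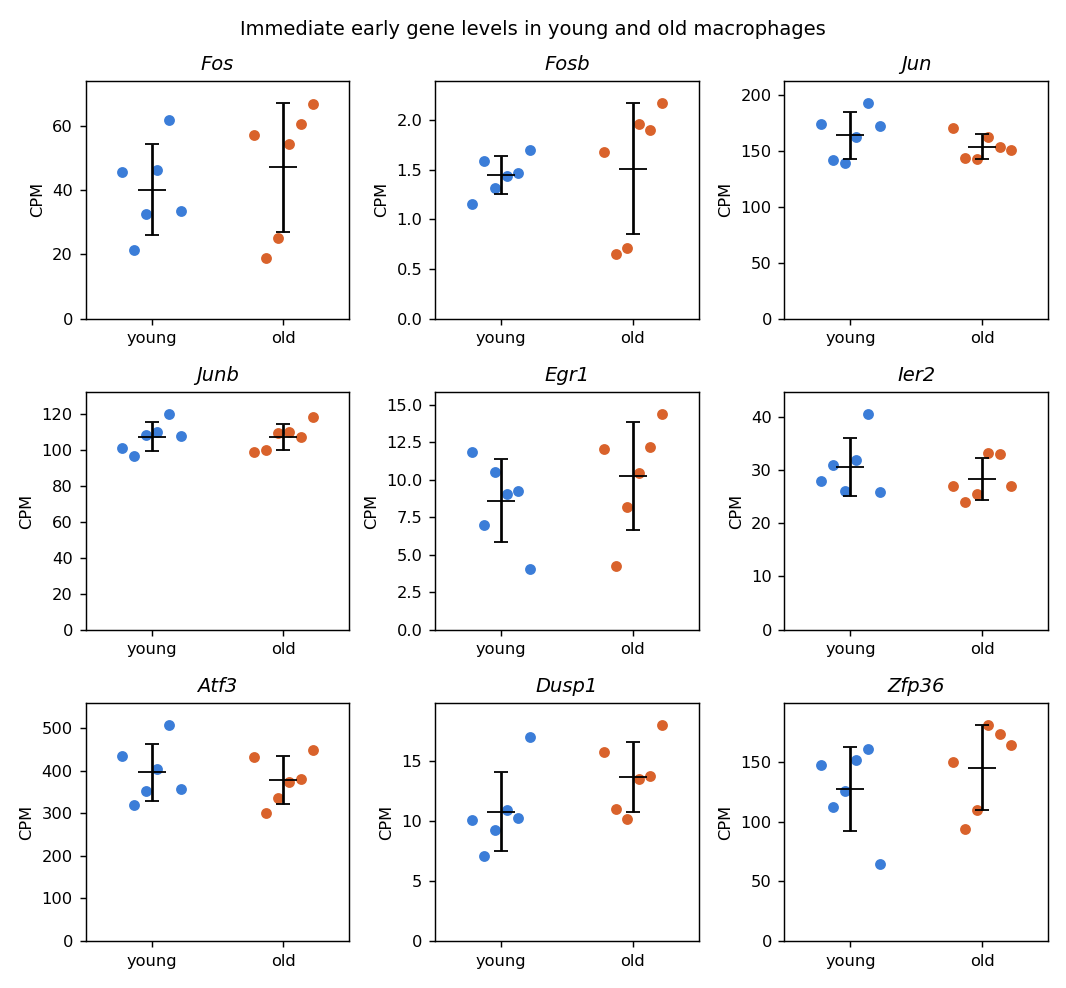
Level of each tested immediate early gene in CPM (vertical axes from 0), with 1 point per library, 6 young (blue) and 6 old (orange), and a bar for the mean and SD of each group. The groups overlap in all 9 panels, and Fos, Fosb, Egr1, Dusp1 and Zfp36 span a wider range relative to their mean than Jun and Junb.

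Per exon length the members differed by orders of magnitude. In CPM per kilobase of exon (RPKM, mean ± SD over 12 libraries), Atf3 was highest at 180 ± 27.9, followed by Junb at 59.4 ± 4.01, Jun at 49.7 ± 5.20, Zfp36 at 39.3 ± 10.2, Ier2 at 19.3 ± 3.08 and Fos at 18.5 ± 7.19. Dusp1 (3.70 ± 1.01), Egr1 (2.11 ± 0.707) and Fosb (0.237 ± 0.0749) were lowest of those tested. Library ranges of neighbours in this order overlapped for Junb and Jun, Jun and Zfp36, Zfp36 and Ier2, Ier2 and Fos, and Dusp1 and Egr1. They did not overlap between Atf3 and Junb, between Fos and Dusp1, or between Egr1 and Fosb.

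Among the Fos family, Fos (ENSMUSG00000021250, GRCm38 chr12:85473890-85477273, plus strand) encodes a partner of the Jun proteins in AP-1. Its level in young replicates 1 to 6 was 45.7, 21.3, 32.5, 46.1, 61.7 and 33.4 CPM, and in old replicates 1 to 6 it was 57.2, 18.8, 24.9, 54.3, 60.5 and 66.8 CPM. The old libraries fell into 4 high and 2 low ones, and the 2 low ones, replicates 2 and 3, were among the 3 lowest of all 12. The group means were 40.1 ± 14.1 and 47.1 ± 20.1 CPM (SD, n = 6 each), a log2 fold change of 0.23 (SE 0.33, 95% interval -0.51 to 0.97, edgeR adjusted p = 0.87). It ran from 0.10 without young replicate 2 to 0.40 without old replicate 2. Fosb (ENSMUSG00000003545, chr7:19302696-19310051, minus strand), its paralog, ran from 1.16 to 1.70 CPM in young (median 1.45) and from 0.651 to 2.18 CPM in old libraries (median 1.79). Its counts were only 14 to 42 a library, and the lowest values were again old replicates 2 (0.651 CPM) and 3 (0.711 CPM). The log2 fold change of Fosb was 0.06 (SE 0.29, 95% interval -0.58 to 0.71, edgeR adjusted p = 0.96).

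The Jun family was steadier. Jun (ENSMUSG00000052684, chr4:95049034-95052222, minus strand) was measured at 174, 142, 139, 162, 193 and 172 CPM in young replicates 1 to 6 and at 170, 143, 142, 162, 153 and 150 CPM in old ones. All old values lay within the young range, whose top was young replicate 5, and the means were 164 ± 20.7 and 154 ± 10.9 CPM. The log2 fold change of Jun was -0.09 (SE 0.08, 95% interval -0.28 to 0.10, edgeR adjusted p = 0.81). Junb (ENSMUSG00000052837, chr8:84976910-84978718, minus strand), a Jun protein that often restrains Jun, ran from 97.0 to 120 CPM in young (median 108) and from 99.0 to 118 CPM in old libraries (median 108). With means of 108 ± 8.01 and 107 ± 7.18 CPM it had the narrowest interval of the members, -0.15 to 0.14 on the log2 scale. Within groups the SD of log2 CPM was 0.10 for Junb and 0.15 for Jun, below the median of 0.224 over all tested genes.

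Jund (ENSMUSG00000071076, chr8:70698949-70700616, plus strand), the Jun protein usually present in resting cells, was counted close to 0: 2 counts each in young replicate 1 and old replicate 6, and 0 in the other 10 libraries. All 12 values were below the limit of 3 counts (0.119 to 0.155 CPM by library), so no fold change is given. Of its annotated exon bases, 877 (52.6%) lie in an exon of Gm11175 on the opposite strand, which itself had 0 counts in all libraries. Under the settings in the table's header, reads that overlap 2 genes are not assigned, and the RefSeq start of Jund (chr8:70697739) lies upstream of the counted span. The part of either in the low count was not tested, and the value is uncertain as a measure of Jund expression. Shared exon bases were fewer for Jun (232 bases, 7.28%, with Junos, which had 16 to 26 counts a library), Zfp36 (125 bases, 3.60%, with Gm44710) and Dusp1 (11 bases, 0.332%, with Ergic1).

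Of the other transcription factors, Egr1 (ENSMUSG00000038418, chr18:34859823-34864984, plus strand) stood at 11.8, 6.98, 10.5, 9.07, 9.26 and 4.04 CPM in young replicates 1 to 6 and at 12.1, 4.28, 8.18, 10.5, 12.2 and 14.4 CPM in old ones. Each group held 1 library near 4 CPM, young replicate 6 and old replicate 2, while the other 10 lay at 6.98 to 14.4 CPM. The log2 fold change was 0.25 (SE 0.28, 95% interval -0.38 to 0.89, edgeR adjusted p = 0.84), and ran from 0.11 without young replicate 6 to 0.41 without old replicate 2. Atf3 (ENSMUSG00000026628, chr1:191170296-191218039, minus strand) was measured at 434, 320, 352, 403, 507 and 357 CPM in young and at 432, 301, 335, 374, 380 and 448 CPM in old replicates 1 to 6. Its highest value was in young replicate 5 and its lowest in old replicate 2, and the log2 fold change was -0.06 (SE 0.12, 95% interval -0.34 to 0.21, edgeR adjusted p = 0.90). Ier2 (ENSMUSG00000053560, chr8:84661331-84662854, minus strand), a small nuclear protein of the immediate early response, ran from 25.8 to 40.5 CPM in young (median 29.4) and from 23.9 to 33.2 CPM in old libraries (median 27.0). Its log2 fold change was -0.11 (SE 0.12, 95% interval -0.38 to 0.16, edgeR adjusted p = 0.83).

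The feedback inhibitors had higher means in old libraries, and neither passed the test. Dusp1 (ENSMUSG00000024190, chr17:26505590-26562128, minus strand) was measured at 10.1, 7.11, 9.29, 11, 10.3 and 17 CPM in young and at 15.8, 11, 10.2, 13.5, 13.7 and 18 CPM in old replicates 1 to 6. Young replicate 6 lay among the highest old values, and the other 5 young libraries stood at or below 11 CPM. The means of 10.8 ± 3.33 and 13.7 ± 2.93 CPM gave a log2 fold change of 0.34 (SE 0.19, 95% interval -0.09 to 0.77, unadjusted p = 0.098 and adjusted p = 0.77 by edgeR), the largest of the 9. Without young replicate 6 it was 0.52, with an unadjusted p of 0.0046 and an adjusted p of 0.78 by edgeR, and without young replicate 2 it was 0.25. Zfp36 (ENSMUSG00000044786, chr7:28376784-28380253, minus strand) was measured at 148, 112, 126, 152, 161 and 64.9 CPM in young and at 150, 93.7, 110, 181, 173 and 165 CPM in old replicates 1 to 6. Young replicate 6 was the lowest of all and old replicate 2 the next, and the log2 fold change was 0.19 (SE 0.22, 95% interval -0.29 to 0.68, edgeR adjusted p = 0.84). It was 0.059 without young replicate 6 and 0.29 without old replicate 2.

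**Figure D2:**
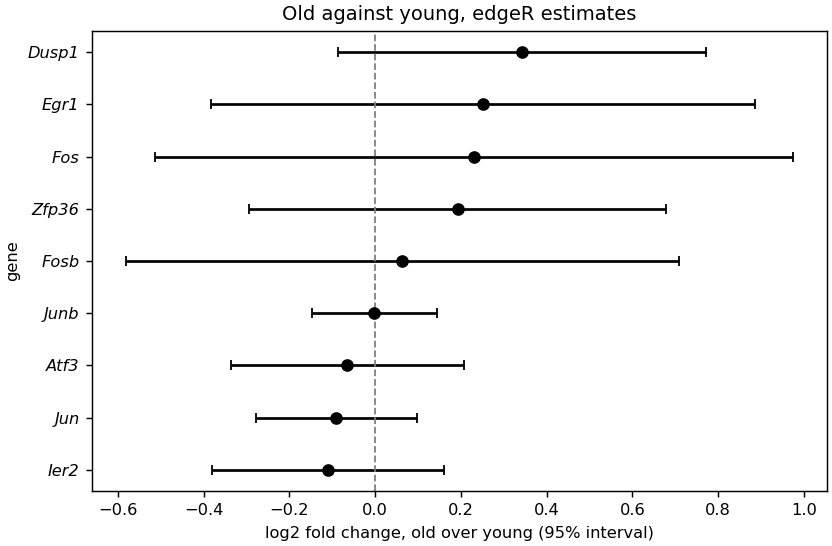
Log2 fold change of each tested immediate early gene, old over young (horizontal axis, dashed line at 0), as a point with its 95% interval from edgeR. All 9 intervals include 0, from the narrow one of Junb (-0.15 to 0.14) to the wide one of Fos (-0.51 to 0.97).

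The 3 libraries of high cell cycle level were 1 of the young and 2 of the old group. Without them the members' median log2 fold change was 0.26 in place of 0.06, and 0 of 9 passed the edgeR threshold (0.0235% of all genes did). Dusp1 then stood at 0.68 (SE 0.13), with an edgeR adjusted p of 0.12, the lowest of any member under any alternative. At an unadjusted p under 0.05 there were 4 members, Dusp1, Zfp36, Egr1 and Fosb, all with higher values in old libraries, beside 18.1% of all genes tested. Fos stood at 0.53 (SE 0.26, edgeR adjusted p = 0.31). In the libraries that remained, the cell cycle level ran from 4.34 to 5.34 in young and from 3.95 to 4.38 in old. Leaving the 3 out thus did not even the groups in this level, and its part in these fold changes was not tested.

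The members differed in how far they varied within a group. The within-group SD of log2 CPM was 0.66 for Fos, 0.59 for Egr1, 0.53 for Fosb, 0.44 for Zfp36 and 0.36 for Dusp1. It was higher than in 92.2% of all tested genes for Fos, in 89.3% for Egr1 and in 86.6% for Fosb. For Ier2 (0.22) and Atf3 (0.23) it was close to the median of all tested genes. Among genes with a mean of at least 5 CPM the median SD was 0.18, and Ier2 was above 63.9% and Atf3 above 66.6% of them. From the lowest to the highest library the CPM spanned 3.56-fold for Egr1, 3.55-fold for Fos, 3.34-fold for Fosb, 2.79-fold for Zfp36 and 2.53-fold for Dusp1, against 1.24-fold for Junb and 1.39-fold for Jun.

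The levels of the members tended to move together from library to library. Over the 36 pairs of the 9 tested members, Pearson's r of log2 CPM had a median of 0.47, beside -0.00034 over all 79625890 pairs of tested genes, and 35 of 36 pairs were above 0. An r of 0.7 or more was reached by 6 of 36 pairs, against 5.79% of all gene pairs. Among pairs of genes with a mean of at least 5 CPM, which all tested members but Fosb had, the share was 8.07%. After Benjamini-Hochberg adjustment over the 36 pairs, 6 passed 0.05 by Pearson's r, 3 by Spearman's rho and 2 by both, in two-sided permutation tests. The 2 were Fos with Atf3, and Fos with Zfp36. This rests in part on single libraries and on the scaling. Without old replicate 2 the median r was 0.34 and 3 of 36 pairs (8.33%) reached 0.7, close to the 6.07% of all gene pairs in the same libraries. With scaling by library size alone it was also 3 of 36, close to the 7.22% of all gene pairs, and the median r was 0.34 beside 0.057 over all pairs. Without young replicate 6 the median r was 0.55 and 9 pairs (25%) reached 0.7, against 4.81% of all gene pairs.

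**Figure D3:**
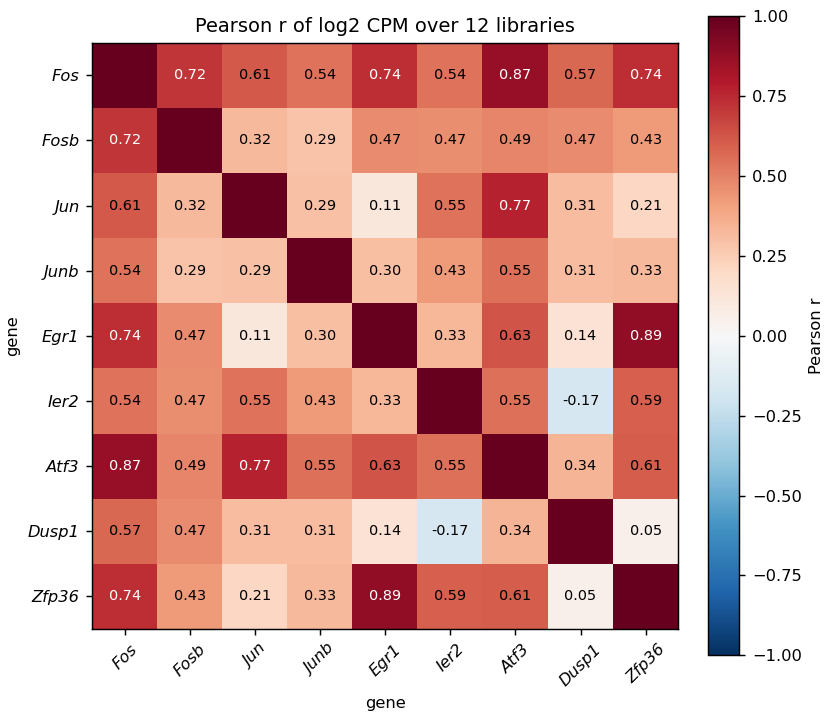
Pearson r of log2 CPM over the 12 libraries for each pair of immediate early genes (rows and columns are genes, and color gives r from -1 to 1). The row of Fos holds 4 of the 6 pairs at 0.7 or more, and Ier2 with Dusp1 (-0.17) is the only pair below 0.

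Fos stood at the centre of this pattern: its r with the mean of the other members was 0.97, against 0.86 for Atf3, 0.67 for Zfp36, 0.63 for Fosb, 0.62 for Egr1, 0.56 for Ier2, 0.54 for Jun, 0.52 for Junb and 0.33 for Dusp1. The closest pair was Egr1 and Zfp36, at r = 0.89 and rho = 0.73 (permutation p adjusted over 36 pairs 0.0052 and 0.065). Without young replicate 6 and old replicate 2 their r was 0.68. Fos and Atf3 gave r = 0.87 and rho = 0.89 (adjusted permutation p = 0.0052 and 0.012), with 0.76 after the 2 farthest libraries were left out. Fos and Zfp36 gave r = 0.74 and rho = 0.82 (adjusted permutation p = 0.044 and 0.033), with 0.72 after the same step. Jun and Atf3, which form dimers with each other, gave r = 0.77 and rho = 0.71 (adjusted permutation p = 0.042 and 0.070), with 0.65 after it. Fos and Egr1 reached 0.74 and Fos and Fosb 0.72, with adjusted permutation p of 0.044 and 0.049 by Pearson's r, and 0.065 and 0.088 by Spearman's rho; without the 2 farthest libraries they were 0.59 and 0.77.

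Within the groups the medians over the 36 pairs were 0.35 in the 6 young libraries (27 pairs above 0) and 0.70 in the 6 old libraries (35 pairs above 0). Over all gene pairs the within-group medians were 0.00011 and -0.0002. Fos and Atf3 moved together in both groups, with r = 0.96 in young and 0.91 in old, as did Egr1 and Zfp36 with 0.91 and 0.88. Fos and Fosb did so in old (0.99) and not in young libraries (-0.37), and Fos and Zfp36 gave 0.96 in old and 0.54 in young. The difference between the groups was not tested. Over all 12 libraries Dusp1 had the lowest r with the mean of the other members (0.33). Its median r with single members (0.31) was near those of Jun (0.31) and Junb (0.32). The r of Dusp1 with single members ran from -0.59 to 0.52 in young and from 0.32 to 0.93 in old libraries. With Zfp36 it was 0.05 over all libraries, -0.59 in young and 0.74 in old, and young replicate 6 had the highest young Dusp1 and the lowest Zfp36.

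By library, the mean of the 9 members' standardised log2 CPM was highest in young replicate 5 (1.01 SD units) and old replicate 6 (0.82), and lowest in old replicate 2 (-1.31), young replicate 2 (-0.82) and old replicate 3 (-0.74). Young replicate 5 was the highest of its group for 6 of 9 members, among them Fos, Jun and Atf3. Old replicate 6 was the highest of its group for 6 of 9, and old replicate 2 the lowest of its group for 6 of 9. Old replicate 6 is also the library with 41.6 CPM of T or NK cell markers. It was highest for monocyte markers (79.0 CPM against 15.6 to 66.3 in the other 11) and dendritic cell markers (84.0 against 26.2 to 53.7). It was also highest for mast cell or basophil markers (20.7 against 6.98 to 15.8) and osteoclast markers (31.2 against 14.97 to 25.7). For erythroid or megakaryocyte markers it was lowest (21.3 against 26.7 to 54.5). Itgax gave 1535 of its 1624 dendritic cell counts, and Kit 379 of its 400 mast cell or basophil counts. The monocyte marker Ly6c2 varied widely among old libraries (mean 4.46 CPM, SD 8.86), and the monocyte sum without it was not computed. The part of these markers in the member levels of old replicate 6 was not tested. Without old replicate 6 the median r over pairs was 0.45, with 5 pairs (13.9%) at 0.7 or more, against 6.26% of all gene pairs.

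**Figure D4:**
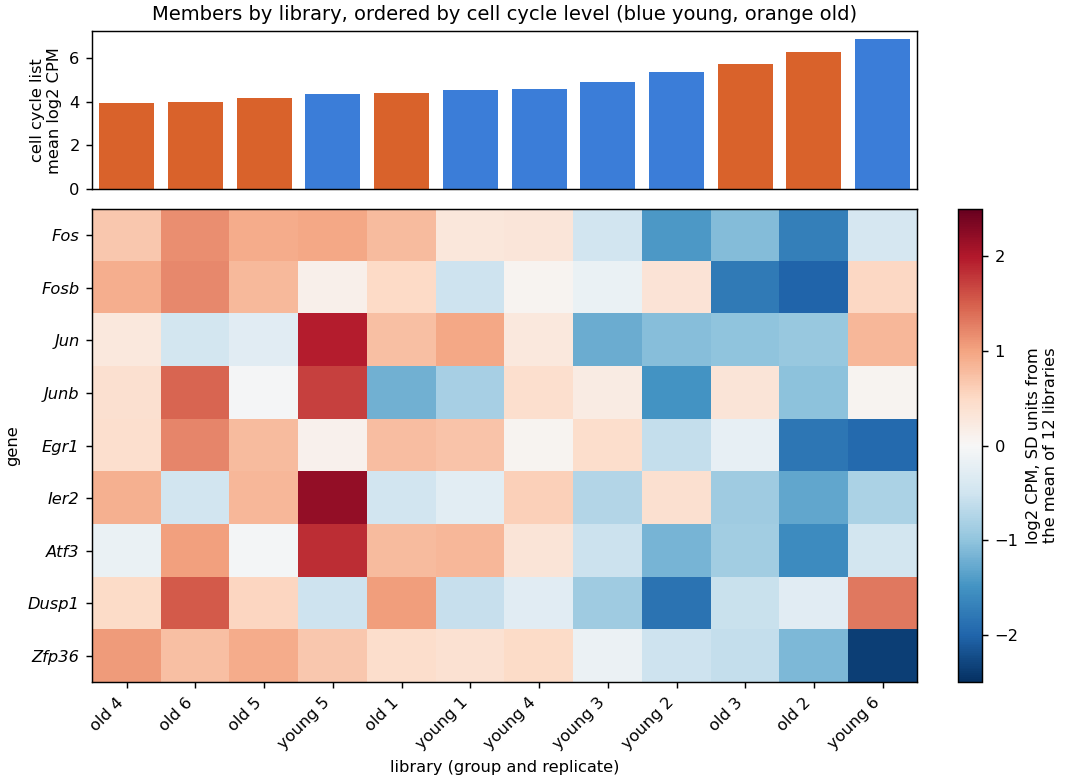
Standardised log2 CPM of the 9 members (rows; color in SD units from each gene's mean over 12 libraries) in each library (columns), ordered by the mean log2 CPM of the cell cycle list, which the bars above show (blue young, orange old). Libraries to the right, of high cell cycle level, are mostly blue. Young replicate 6 combines the lowest Zfp36 and Egr1 with a high Dusp1, the highest Fosb of the young group and a Jun above its mean.

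The members' levels were set against 4 measures of each library: total counts, the share of records outside annotated genes, and the mean log2 CPM of heat shock and of cell cycle genes. Of the 36 relations, 4 passed 0.05 by Pearson's r after Benjamini-Hochberg adjustment, and 3 of these by Spearman's rho as well, in two-sided permutation tests. All 3 were with the cell cycle level, and all 3 were negative. Over the 9 members every r with the cell cycle level was below 0, with a median of -0.58 beside 0.025 over all tested genes, and 3 of 9 were at -0.7 or lower, where 13% of all genes were. None was at 0.7 or higher, where 14.9% of all genes were. In the young libraries alone Fosb (0.697) and Dusp1 (0.60) had an r above 0 with it, and in the old ones both were below 0 (-0.99 and -0.82). Over all 12 libraries there were 4 relations of 0.7 or more in size. Of all genes, 27.9% lay there for the cell cycle level and 27.1% for the share of records outside genes. The shares were 10.0% for heat shock and 3.59% for total counts. Without old replicate 6 there were 7 relations, for which the share of all genes was not computed.

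Zfp36 followed the cell cycle level almost on a line, at r = -0.98 and rho = -0.97 over 12 libraries. The adjusted permutation p was 0.00036 for both, and the unadjusted 1e-05 is the smallest that 100000 resamples can give. The relation held in young (-0.997) and old (-0.99) libraries, ran from -0.99 to -0.98 as each library was left out, and was -0.97 without the 3 libraries of highest cell cycle level. Of 12620 tested genes, 3 (0.0238%), Zfp36 included, had an r that low or lower. Egr1 gave r = -0.93 and rho = -0.80 (adjusted permutation p = 0.0016 and 0.031), with 1.17% of genes as low, and -0.74 without those 3 libraries. Fos gave r = -0.80 and rho = -0.84 (adjusted permutation p = 0.030 and 0.020), with 7.53% of genes as low, and -0.94 without the 3 libraries. Young replicate 6 lay off the line for Fos, at 33.4 CPM.

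Neutrophil markers were low in the same libraries as Zfp36, and some other marker lists were not. The 10 neutrophil markers, 6 of which passed the low-count filter, had their smallest sum, 50.6 CPM, in young replicate 6, with 102 and 134 CPM in old replicates 2 and 3 and 137 to 215 CPM in the other 9, where Zfp36 was also higher. The sums were 50.6 to 195 CPM among young libraries and 102 to 215 CPM among old ones, and Ly6g, a defining neutrophil marker, was at 0 in 10 of the 12. Most of the neutrophil sum was Csf3r, at a mean of 129 CPM over the 12 libraries, followed by S100a9 at 12.2 CPM. Young replicate 6 was also lowest for macrophage markers (31789 CPM against 37057 to 48903 in the other 11) and monocyte markers (15.6 against 34.8 to 79.0). Monocyte markers stood at 42.3 and 48.1 CPM in old replicates 2 and 3. In young replicate 6 dendritic cell markers summed to 53.7 CPM (26.2 to 84.0 in the other 11). Erythroid or megakaryocyte markers summed there to 45.4 CPM (21.3 to 54.5) and osteoclast markers to 25.7 CPM (14.97 to 31.2). Old replicate 2 was highest for erythroid or megakaryocyte markers (54.5 against 21.3 to 45.4) and stromal, endothelial or fibroblast markers (308 against 220 to 301). The part of these markers in the level of Zfp36 was not tested.

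**Figure D5:**
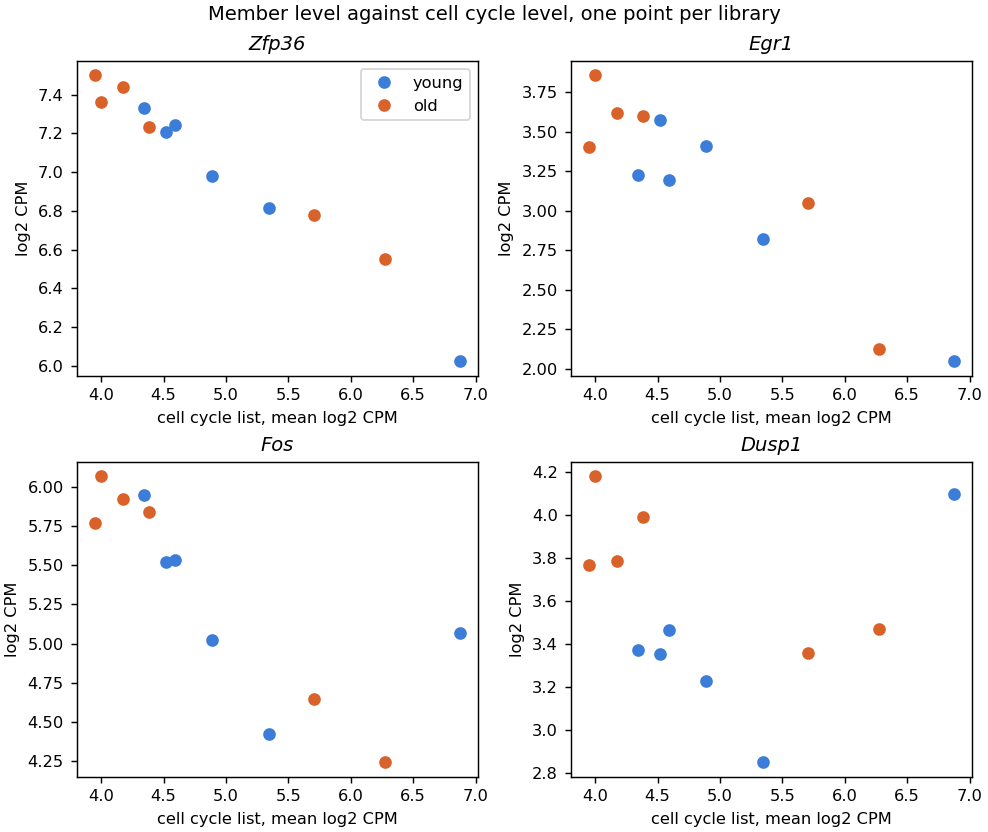
Log2 CPM of Zfp36, Egr1, Fos and Dusp1 (vertical axes) against the mean log2 CPM of the cell cycle list (horizontal axes), 1 point per library, young in blue and old in orange. Zfp36 falls along a line (r = -0.98), Egr1 and Fos fall with more spread, and Dusp1 is high in young replicate 6 and falls among the others.

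For Dusp1 the r with the cell cycle level was -0.12 over all 12 libraries, 0.60 in young and -0.82 in old. It was -0.86 without the 3 libraries, and -0.57 to 0.04 as each library was left out. Atf3 gave -0.67 (adjusted permutation p = 0.094). With the cell cycle level removed by regression, the median r over the 36 pairs was 0.20 in place of 0.47, beside -0.00042 over all gene pairs. An r of 0.7 or more was then reached by 4 pairs (11.1%), against 4.49% of all gene pairs. With the 3 libraries left out the median r was 0.46. Whether the cell cycle level takes part in the members' shared variation was not tested beyond these values. No member passed the test against the heat shock level or against total counts, and none reached 0.7 in size, where 4.31% of all genes lay below and 5.71% above for heat shock, and 1.97% and 1.62% for total counts. The highest r with heat shock genes was that of Dusp1 (0.67, adjusted permutation p = 0.094), which was 0.97 in young and 0.31 in old libraries. Egr1 followed the share of records outside genes (r = 0.75, rho = 0.71, adjusted permutation p = 0.043 and 0.084, where 13.3% of all genes reached 0.7 and 13.8% -0.7), and this was 0.48 without young replicate 6 and old replicate 6.

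In the lists of other genes of the pathway 0 genes passed the edgeR threshold. Of 14 tested immediate early transcription factors outside the members, 8 had higher and 6 lower means in old (median log2 fold change 0.04), with Klf6, a zinc finger factor, at 131 ± 23.5 CPM (young) and 166 ± 39.6 CPM (old), and Klf2 at 43.4 ± 7.67 and 42.1 ± 5.81 CPM. Of 20 other immediate early regulators, 6 were above and 14 below (median -0.05), among them Mcl1, an anti-apoptotic BCL2 relative, at 958 ± 186 and 1008 ± 125 CPM, and Rgs2, which limits G protein signaling, at 238 ± 32.4 and 227 ± 29.8 CPM. Of 27 upstream genes (SRF and its partners, CREB and MAP kinases) 14 were above and 13 below (median 0.02), with the kinases Mapkapk2 at 408 ± 73.8 and 382 ± 40.7 CPM and Mapk3 at 354 ± 20.7 and 340 ± 37.2 CPM.

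The 14 tested AP-1 dimer partners split 7 and 7 (median 0.0004), with Maf, a bZIP factor of macrophages, at 470 ± 107 and 469 ± 71.7 CPM and Atf4, the factor of the integrated stress response, at 227 ± 65.2 and 192 ± 22.7 CPM. The 10 other dual-specificity phosphatases split 5 and 5 (median -0.03), with Dusp3 at 157 ± 11.1 and 163 ± 17.4 CPM and Dusp7 at 67.6 ± 3.91 and 64.4 ± 4.02 CPM. Among 14 genes of the ZFP36 family and of mRNA decay, 11 were above and 3 below (median 0.17), and again none passed. Zfp36l2 stood at 202 ± 37.5 and 244 ± 48.9 CPM and Zfp36l1 at 88.2 ± 31.7 and 116 ± 37.2 CPM, both paralogs of Zfp36 that also bind AU-rich elements. Of 21 primary response inflammatory genes 10 were above and 11 below (median -0.0014), with Cd14, the co-receptor for lipopolysaccharide, at 353 ± 68.7 and 332 ± 58.0 CPM and Cd83 at 146 ± 50.2 and 153 ± 42.2 CPM. The heat shock list (14 genes, 5 above and 9 below, median -0.06) held the chaperones Hspa8 at 1708 ± 263 and 1527 ± 102 CPM and Hspa5 at 1105 ± 192 and 1061 ± 195 CPM.

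None of the 25 cell cycle genes passed the threshold. All 25 had fitted log2 fold changes below 0, with a median of -0.31. This direction changed with the libraries kept. The mean CPM was lower in old for 25 of 25 with young replicate 6 and for 0 of 25 without it. That step kept old replicate 2 and old replicate 3, whose mean log2 CPM of the list was 6.27 and 5.70. With these left out as well, that level ran from 4.34 to 5.34 in young libraries and from 3.95 to 4.38 in old ones. The mean level of the list was 5.09 in young (4.74 without young replicate 6) and 4.75 in old on the log2 CPM scale. Within groups they varied widely: Top2a, which untangles replicated DNA, stood at 155 ± 158 and 125 ± 114 CPM, and Pcna, the polymerase clamp, at 292 ± 104 and 263 ± 34.2 CPM. Against the mean of the members' standardised levels, the cell cycle genes had a median r of -0.84. The highest list median was that of the 10 macrophage markers, at 0.50, followed by the other immediate early regulators (0.47), the primary response inflammatory genes (0.46), 2 mast cell or basophil markers (0.45) and the ZFP36 family and decay genes (0.42), beside -0.01 over all tested genes.

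The genes whose pattern over the 12 libraries was most like the members' mean, of at least 5 CPM, were Pik3ap1 (r = 0.97), an adaptor that links receptors to PI3 kinase, Slc15a3 (0.96), a lysosomal peptide transporter, Slc12a7 (0.95), a potassium-chloride cotransporter, and Nrp1 (0.94), a co-receptor for semaphorins and VEGF. Tor1aip2, Hs6st1, Plekhf2 and Larp1 followed, each at 0.94. In all, 514 of 9416 non-member genes (5.46%) reached 0.7 or more, so these 8 are the far end of a broad set. Pik3ap1 had means of 495 ± 86.4 and 510 ± 112 CPM, a log2 fold change of 0.04 (edgeR adjusted p = 0.95).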

How the data were processed

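Libraries of 12 macrophage samples were prepared from TRIzol RNA using Illumina's TruSeq v2 chemistry, per the labels' protocols, a kit that does not mark strand. The authors deposited whole read counts per gene, which per the file headers come from featureCounts 1.6.0 and Ensembl 100 gene models on GRCm38, and FastQC and STAR are named without versions in the submitters' processing notes. Strand, pair and multiple-alignment options are absent from the command in the header. Counts of Fosb, Jund and Egr1 were even in all 12 libraries, so mates may have been counted separately and counts are not independent molecules. Symbols were found for 55141 IDs, and the other 260 held 0.00438% of counts.

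The test was edgeR 4.0.16 under R 4.3.3 (quasi-likelihood F test, TMM factors, edgeR's own low-count filter, robust fitting) on all 12 libraries with the group alone, two-sided, with Benjamini-Hochberg adjustment over 12620 genes and a threshold of 0.05. CPM used TMM factors, and marker sums by library used totals where one library is set against the others. RPKM used the exon length in the table. Intervals of fold changes are at 95% on 10 residual degrees of freedom. Pairs of members and members against library measures were tested on log2 CPM (prior count 2) by permutation (100000 resamples) with SciPy 1.17.1. As Jund did not pass the filter there were 36 pairs and 36 relations. For r without the 2 farthest libraries, those farthest from the median of the first gene or of the measure were left out. A count of 0 was read as allowing up to 3 counts. The CArG box was searched as CC, 6 bases of A or T, and GG. No pair of libraries agreed within sampling noise (chi-square per gene 5.12 to 182).

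All members are named; of each list, the 2 genes of highest mean CPM and any past the threshold; the 8 genes most like the members; the genes called in the whole table; and Adgre1, Csf1r and Cd68. Genes named outside this rule in the closing section, and Ly6c2, were chosen after their values were seen. The members, lists and tests were chosen with earlier results of these data known. The fit was tested on simulated data. Alternatives were other scalings and filters, DESeq2 1.42.0, limma voom (limma 3.58.1), a replicate block and each library left out; leaving out the 3 libraries of highest cell cycle level and regression on that level were chosen after seeing the data.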

Additional observations from a re-analysis of the deposited data

How the results depend on the processing

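No alternative put a member past the threshold, over 188 member results. Of these, 173 kept their direction and 15 reversed, all for members near 0. Fosb was -0.083 with limma voom, -0.024 with a replicate block and -0.065 to 0.22 as each library was left out. Junb was 0.018 with library size only, 0.0020 for genes of mean CPM of at least 5, 0.015 with the 3 libraries of highest cell cycle level left out and -0.030 to 0.033 as each library was left out. Atf3 was 0.018 with those 3 left out and -0.12 to 0.020 as each library was left out. The cause was not tested.

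Genes called in the whole table (2) numbered 4 with no low-count filter, 15 with DESeq2, 4 with a replicate block, and 1 (without young replicate 4) to 5 (without young replicate 3) as each library was left out. The members' median log2 fold change was 0.26 with the 3 libraries left out. The median r over pairs (0.47) was 0.20 with the cell cycle level removed by regression, 0.44 with a replicate block, and 0.34 (without old replicate 2) to 0.55 (without young replicate 6) as each library was left out. Pairs at 0.7 or more (6 of 36, beside 5.79% of all gene pairs) numbered 3 with library size only (8.33%, beside 7.22% of all gene pairs) and 3 (without old replicate 2, beside 6.07%) to 9 (without young replicate 6, beside 4.81%). Relations to library measures of 0.7 or more in size (4) numbered 8 with the 3 libraries left out and 4 to 7 as each library was left out, 7 without old replicate 6. The share of all genes was not computed for these sets of libraries, so the counts are not read as a result about the members. Same-numbered libraries of the groups had r of -0.17 to 0.39, over 0.1 for 4 of 6 numbers, and 2 of 6 young libraries were most like the old library of their own number. As not every number passed 0.1 and the labels give no shared animal or day, the numbers were not taken as pairs. With a replicate block 1 member, Dusp1, had an unadjusted p under 0.05 by edgeR (0.0079 before and 0.78 after adjustment), beside 583 of 12620 genes.

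Depth limits Fosb (14 to 42 counts) and Jund (0 to 2), and a median SE of 0.19 over the members limits what old against young can show.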

Other observations

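Genes of the fixed lists that followed the members' mean most closely over the 12 libraries, chosen after their values were seen are given here. The kinase Map2k1, which activates ERK, had r = 0.91 with that mean. The phosphatase Dusp5, which acts on nuclear ERK, had 0.89, and the decapping enzyme Dcp2 0.89. Among other immediate early genes, Plk2 and Rgs2 had 0.87, Trib1 and Nr4a1 0.86, and Gadd45b 0.83. Of the inflammatory genes, Tnfaip3, which restrains NF-kB, had 0.85 and Nfkbie, an NF-kB inhibitor, 0.81. An r of 0.7 or more was reached by 4 of 20 immediate early regulators, 4 of 21 inflammatory genes and 2 of 14 immediate early transcription factors. It was reached by 1 gene each of 27 upstream genes (3.70%), 14 AP-1 partners, 10 phosphatases, 14 decay genes, 14 heat shock genes and 10 macrophage markers, beside 4.79% of all tested genes. Of the upstream genes, Map2k6 had -0.71 and Mapk3 -0.67. At -0.7 or lower were 18 of 25 cell cycle genes, beside 662 of 12619 tested gene symbols. These are descriptions over 12 libraries that share the same scaling, with no test.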
